A study of Mus musculus with 4 samples.

Results

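The Hox genes were followed across the cell types of the mouse gonad and mesonephros at the time of sex determination. Members were all columns of the deposited count table whose symbol was Hox, a cluster letter from a to d and a number. By this rule 36 of 21495 genes were members, of which 11 belonged to HoxA, 9 to HoxB, 7 to HoxC and 9 to HoxD. The HoxA genes lay on the minus strand of chromosome 6 of mm10. The HoxB genes lay at chr11:96271457-96368256, the HoxC genes at chr15:102954427-103036852 and the HoxD genes at chr2:74668310-74765142, each on the plus strand. Hoxb13, Hoxc12 and Hoxc13 were not analysed here.

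Droplet single-cell RNA-seq was performed on pools of several pairs of gonads with their mesonephros, with 1 sample per group. The labels give a C57BL/6 x 129S4/SvJae background, whereas in the methods the G4 cells are a C57BL/6J and 129 hybrid and the XX embryos had C57BL/6J fathers and 129 mothers. XY KO embryos at E11.5 and at E11.75 carried a homozygous CRISPR deletion of miR-17~92, a cluster of microRNA genes, and were grown from edited G4 embryonic stem cells by tetraploid aggregation. In this method the embryo proper derives from the stem cells. XY controls at E11.5 came from unedited G4 cells by the same route, whereas XX controls at E11.5 came from breeding. Each pool was profiled in 2 technical replicates, or 1 for the E11.75 KO, called runs here. The runs of a sample are libraries of different cells, since they shared at most 0.344% of barcodes, but of the same pool, and so no p-value is given. The E11.75 KO sample had no control of its own stage, and stage and deletion cannot be told apart in it. Which KO sample is which was taken from the labels. The methods list the cell numbers of the KO samples in the other order, whereas the number of runs in the table fits the labels. All comparisons between groups shared the XY control sample.

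Hox genes encode homeodomain transcription factors that lie in clusters, in an order that matches their order of activation along the head to tail axis. Members at the same position of different clusters form paralog groups, numbered from the end that is active first and most anteriorly to the end that is active last and most posteriorly. In the urogenital ridge the posterior genes are known for patterning kidney and genital ducts, and Hoxa11, Hoxc11 and Hoxd11 act with Eya1 and Pax2 to switch on Six2 and Gdnf in nephric mesenchyme. Hox proteins bind DNA together with TALE homeodomain cofactors of the Pbx, Meis and Pknox families.

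The deleted locus encodes 6 microRNAs whose mature sequences are given here with the seed, bases 2 to 8, in capitals, because the seed decides which 3′ UTRs they can pair with. They were taken from RefSeq (GRCm38.p6, the mm10 assembly) and lay between bases 115043684 and 115044496 of chromosome 14, on the plus strand.
miR-17-5p: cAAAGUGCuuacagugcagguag
miR-20a-5p: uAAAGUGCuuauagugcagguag
miR-18a-5p: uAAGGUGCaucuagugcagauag
miR-19a-3p: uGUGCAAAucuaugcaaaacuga
miR-19b-3p: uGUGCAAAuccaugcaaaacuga
miR-92a-3p: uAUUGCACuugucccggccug
The first pair share a seed, as do the miR-19 pair, so that there are 4 seed families.

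None of the 36 members carried an 8-base site of any of the 4 families (GCACTTTA, GCACCTTA, TTTGCACA or GTGCAATA, searched on the transcribed strand) in its longest annotated 3′ UTR, whereas 12.3% of 17302 genes with a 3′ UTR did. Sites of 7 or 8 bases were present in 15 of 36 members (41.7%) and in 43.3% of all genes, at a median 3′ UTR length of 963 bases for members and 1069 bases for all genes. The 7-base sites of 6 members with high levels in these tissues follow, with the 7 matching bases in capitals. A 7-base site is one of these motifs without its first or without its last base.
Hoxa5, miR-19 site at chr6:52201967-52201991, minus strand: ctttgtaggacccTTTGCACgaact
Hoxa7, miR-17 site at chr6:52215507-52215531, minus strand: ccattcaatcaccCACTTTAgctcc
Hoxa9, miR-19 site at chr6:52223398-52223422, minus strand: cttgaatattgttTTTGCACcagag
Hoxa9, miR-92 site at chr6:52223170-52223194, minus strand: acactgtatatttTGCAATAgttac
Hoxb4, miR-17 site at chr11:96320436-96320460, plus strand: tctaccctaccctCACTTTAtctat
Hoxc4, miR-92 site at chr15:103036765-103036789, plus strand: ttattgtaaaactTGCAATAaagaa
Hoxc8, miR-92 site at chr15:102993751-102993775, plus strand: cctaaagggaaccTGCAATAatctt
A match of letters is a description and no evidence of pairing.

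Levels are CPM, a gene's unique molecular identifiers (UMIs) summed over the cells of a type and sample, per 1000000 UMIs of all genes. The UMIs mark 3′ ends and were not scaled by gene length. Values of 4 samples are given throughout in the order XY control, E11.5 KO, E11.75 KO and XX control, and all intervals are 95% intervals that cover counting error only. For a level of 0, the CPM that 3 counts would give is stated as the limit. The samples held 3669 to 23527 cells and 37841392 to 105192238 UMIs, with a median per cell of 3893, 4763, 3921.5 and 15509 UMIs. Between 1 and 40 cell barcodes were shared by any pair of the 7 libraries, at most 0.687% of the smaller one. Mir17hg, the host gene of the deleted cluster, stood at 19.8, 156, 161 and 18.2 CPM, so that the KO samples stood apart from both controls. Its 3′ tags need not lie in the deleted part and do not measure the deletion. Of 12 marker lists of the deposited types, 11, 10, 11 and 10 had their highest sum in their own type in the 4 samples. Supporting-like cells were the exception in each sample, markers of pre-supporting cells were higher in Sertoli cells in the E11.5 KO, and Sertoli markers were higher in supporting-like cells in the XX control. Mesonephric epithelium, which had no list, carried 646 CPM of coelomic epithelium markers against 1017 CPM in that type. The type called Sertoli cells here, deposited as Supporting, held 24 cells in the E11.5 KO and 2 in the XX control and is not compared.

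All 36 members were detected in every sample, and 10 of them stayed under 10 CPM over all cells of each sample. Hox transcripts made up 949, 1049, 1255 and 1077 CPM over all cells. Their summed level was highest in mesonephric types. It was 1604, 1470, 2031 and 1707 CPM in mesonephric tubules, 1272, 1274, 1763 and 1395 CPM in mesonephric mesenchyme and 829, 830, 995 and 824 CPM in coelomic epithelium, the surface layer that gives rise to gonadal somatic cells. In interstitial progenitors it was 704, 780, 896 and 796 CPM. Pre-supporting cells, the bipotential precursors of Sertoli and granulosa cells, had 245, 327, 318 and 332 CPM. Germ cells, which arise outside the ridge and migrate into it, had 53.0, 80.2, 79.6 and 73.6 CPM. Each sample had the same order of these types, from tubules through mesenchyme, coelomic epithelium and interstitial progenitors to pre-supporting cells and germ cells, with the smallest step between coelomic epithelium and interstitial progenitors of the XX control. Immune cells had 473 CPM in the XY control, where their median depth was 1488 UMIs, against 85.3, 236 and 199 CPM in the other samples.

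Different clusters led in different compartments, as the heat map of levels by cell type shows. HoxC genes led mesonephric mesenchyme with 527, 507, 723 and 593 CPM, followed by HoxA genes. Hoxc8 stood there at 144, 135, 192 and 155 CPM and Hoxc6 at 129, 135, 196 and 137 CPM. HoxB genes led mesonephric tubules with 884, 802, 998 and 799 CPM, which was 55.1, 54.6, 49.1 and 46.8% of all Hox UMIs of that type. Hoxb4 stood at 158, 127, 167 and 125 CPM and Hoxb2 at 148, 163, 140 and 163 CPM in tubules. HoxB genes also led the adrenosympathetic cells of neural crest origin, where Hoxb9 was the highest member at 135, 117, 168 and 103 CPM.

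HoxD genes led coelomic epithelium in 3 of 4 samples, with 43.6% of Hox UMIs in the XY control, 29.8% in the E11.5 KO, 41.2% in the E11.75 KO and 40.1% in the XX control, against 5.86 to 11.0% in mesonephric mesenchyme. In the E11.5 KO HoxC genes led there, at 295 CPM against 247 CPM for HoxD genes. The HoxD level there was mostly that of Hoxd9, at 236, 164, 249 and 196 CPM in coelomic epithelium and 51.1, 34.5, 66.5 and 53.0 CPM in mesenchyme. Hoxd9 was the highest member of coelomic epithelium in all 4 samples and of interstitial progenitors in all but the E11.75 KO, where Hoxc6 and Hoxd9 were both at 128 CPM. In pre-supporting cells the highest member was Hoxc6, at 41.1, 58.1, 53.8 and 51.5 CPM.

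**Figure D1:**
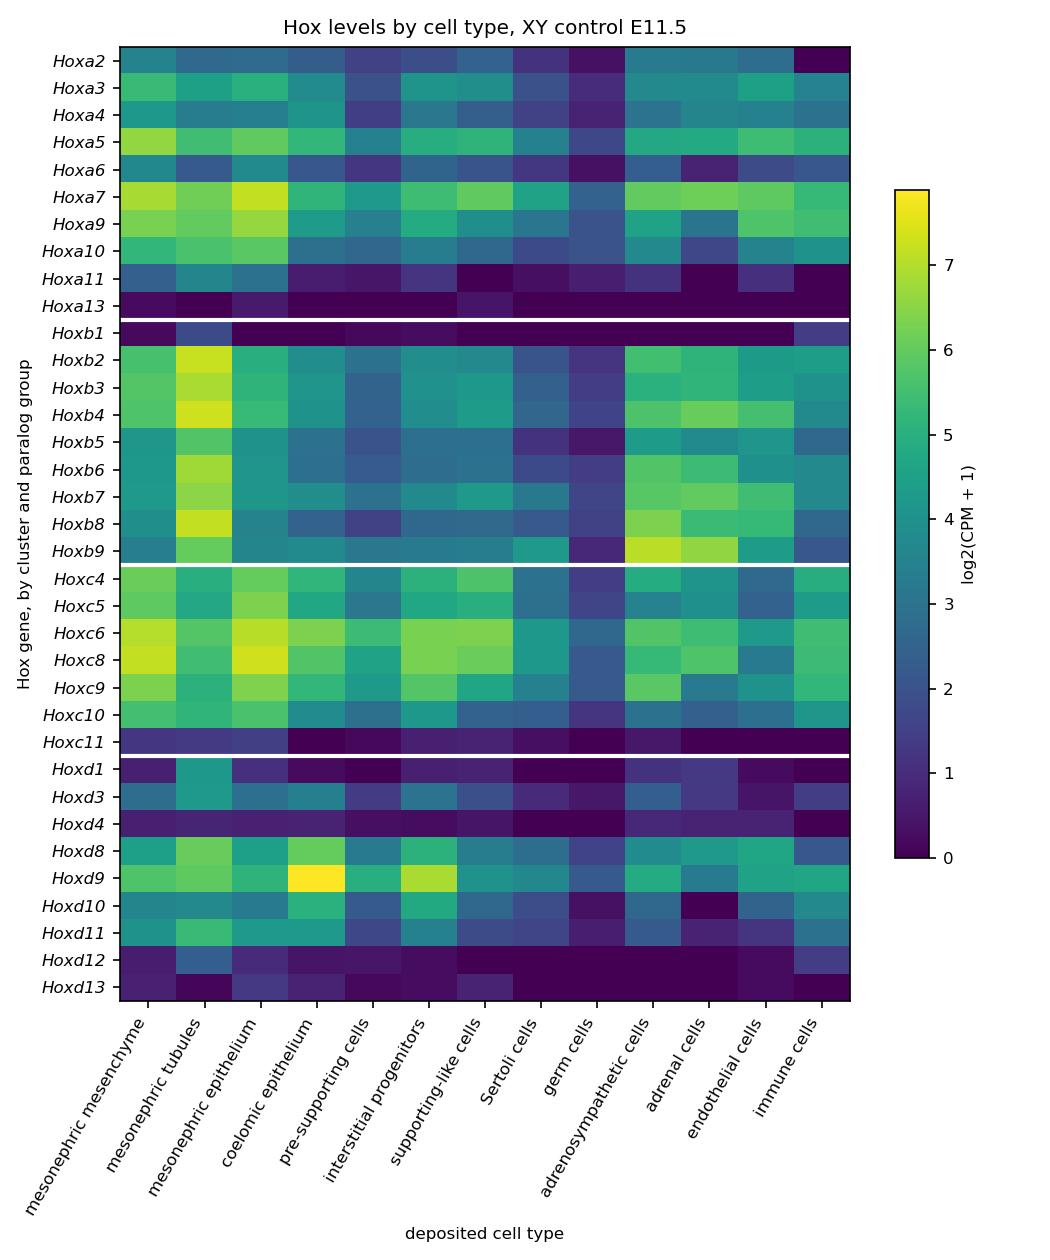
Level of Hox genes (rows, by cluster and paralog group, white lines between clusters) in the 13 deposited cell types (columns) of the XY control, as log2(CPM + 1). Each HoxB row but that of Hoxb9 is brightest in mesonephric tubules, and the single brightest cell is Hoxd9 in coelomic epithelium at 236 CPM.

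Levels across cell types were most alike between neighbours in a cluster. In the XY control, 30 members with enough counts were compared over 13 cell types, which share libraries and depth. Pairs of neighbours within a cluster had a median Pearson correlation of 0.904 (25 pairs), other pairs of the same cluster 0.765 (78 pairs), pairs of the same paralog group 0.634 (28 pairs) and all remaining pairs 0.591 (304 pairs). The order of these medians was the same in the other samples, in which neighbours had 0.890, 0.871 and 0.885 over 12 types. These are descriptions over types and carry no test.

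To compare the compartments, mesonephric types (mesenchyme, tubules and epithelium) and gonadal somatic types were summed within each sample, and log2 ratios were centred on the median gene of the sample, which lay at 0.06 to 0.12. A member was called where it was past 1.5-fold with its interval on the same side of the median gene in each of the 4 samples. Of 28 members with at least 100 UMIs over both compartments in every sample, 22 were higher in mesonephric cells and 1 was lower, where the background was 7.57% of 11967 genes higher and 6.41% lower. All 9 tested HoxA genes, all 8 tested HoxB genes and 5 of 6 tested HoxC genes were higher, whereas 0 of 5 tested HoxD genes were. Of the 22, 7 had under 100 UMIs in gonadal cells of at least 1 sample and so passed through the mesonephric counts. They were Hoxa2, Hoxa4, Hoxa6, Hoxa11, Hoxb2, Hoxb6 and Hoxb8, which leaves 5 HoxA, 5 HoxB and 5 HoxC genes. Cell types were named from the same cells, so this is a description.

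The 8 members with the highest levels in mesonephric cells of the XY control were Hoxc8 at 130 CPM, Hoxc6 at 117, Hoxa7 at 111, Hoxa5 at 84.7, Hoxa9 at 77.2, Hoxc9 at 71.8, Hoxb4 at 66.5 and Hoxc4 at 62.1 CPM. In gonadal somatic cells they were Hoxd9 at 113 CPM, Hoxc6 at 60.7, Hoxc8 at 45.4, Hoxa7 at 32.4, Hoxd8 at 31.9, Hoxc9 at 29.4, Hoxc4 at 26.4 and Hoxa5 at 24.5 CPM. The lists thus shared 6 members and differed in Hoxa9 and Hoxb4 against Hoxd9 and Hoxd8.

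Hoxa11, a regulator of kidney and uterus development, stood at 5.68, 1.63, 14.6 and 15.0 CPM in mesonephric cells and 0.526, 0.382, 0.372 and 1.61 CPM in gonadal somatic cells. Its centred log2 ratio had a median of 3.18 over the samples. It rested on 16, 9, 5 and 26 UMIs in gonadal somatic cells, and the gene reached the minimum of 100 UMIs through mesonephric cells, where it had 329, 96, 308 and 616 UMIs. Hoxb8 stood at 33.9, 30.5, 34.5 and 30.1 CPM against 3.98, 6.37, 3.05 and 3.83 CPM, with a median of 2.91. Medians were 2.53 for Hoxb2, 2.51 for Hoxa10, 2.34 for Hoxb4, 2.24 for Hoxb6, 2.22 for Hoxb3 and 2.14 for Hoxa9. Hoxd9 went the other way, at 50.6, 34.7, 61.1 and 52.1 CPM in mesonephric and 113, 108, 121 and 88.2 CPM in gonadal somatic cells. Its ratios ran from -1.75 to -0.88.

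The 5 tested members that were not called were Hoxc6, Hoxd3, Hoxd8, Hoxd10 and Hoxd11. The ratio of Hoxd8 was near the median gene in each sample, from -0.32 to -0.02. Hoxd10 ranged from -1.32 in the E11.5 KO to 0.31 in the XX control and Hoxd11 from 0.15 to 1.54, so that these genes next to Hoxd9 differed in direction or size between samples. Hoxd3 shares 62.3% of its exon bases with other genes of its strand, Hoxd4 and Gm28230, and Hoxd4 52.3%, and both are uncertain. Between 1.52 and 15.0% of exon bases were shared for Hoxa2, Hoxa3, Hoxa9, Hoxc5, Hoxc10, Hoxd10 and Hoxd11. The 8 members not tested included Hoxa13, Hoxb1, Hoxc11, Hoxd1, Hoxd4, Hoxd12 and Hoxd13.

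**Figure D2:**
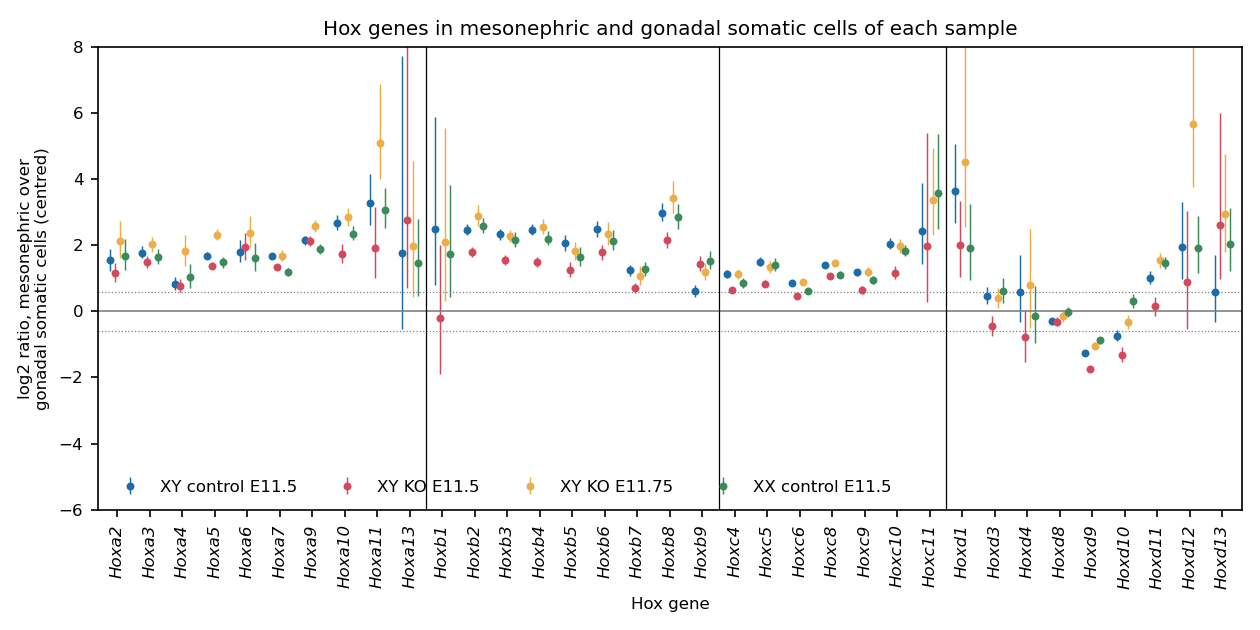
Centred log2 ratio of mesonephric over gonadal somatic cells for Hox genes (horizontal axis, black lines between clusters), 1 point per sample with its 95% counting interval, some of which run past the top of the axis. Dotted lines mark 1.5-fold; HoxA, HoxB and HoxC genes lie above 0 in nearly all samples, whereas Hoxd9 lies between -1.75 and -0.88.

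More Hox genes were also detected per mesonephric cell. With each cell thinned to 3000 UMIs and shallower cells left out, 22.4, 19.7, 38.5 and 28.2% of mesonephric cells had a UMI of at least 5 members, against 3.31, 4.07, 5.08 and 3.37% of gonadal somatic cells and 0% of 556, 158, 151 and 84 germ cells, which allows up to 0.661, 2.31, 2.41 and 4.30% by exact binomial intervals. Without thinning the shares were 35.3, 46.1, 50.3 and 94.6% of mesonephric, 8.55, 15.6, 13.4 and 51.2% of gonadal somatic and 1.44, 3.64, 1.97 and 8.33% of germ cells, at median depths of 3639, 4642, 3525 and 14720 UMIs, 4220, 4836, 4296 and 16178 UMIs and 11991, 12156, 9280 and 40644 UMIs. Thinning left out 4383, 1349, 1901 and 18 mesonephric cells and 1260, 400, 488 and 8 gonadal somatic cells.

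The posterior members differed between samples. Paralog groups 10 to 13 hold 9 members, and their summed level in mesonephric mesenchyme was 116, 63.0, 213 and 221 CPM. In mesonephric tubules it was 153, 40.1, 367 and 326 CPM, and in coelomic epithelium 70.5, 47.6, 116 and 100.3 CPM. The E11.5 KO was the lowest sample in each, the XY control came next, and the E11.75 KO and the XX control were the highest, with no overlap of their counting intervals with those of the XY control. In mesonephric cells the members of group 13, at low counts, were not lower in the E11.5 KO. Over all mesonephric cells Hoxa13 stood at 0.172 CPM in the XY control and 0.457 CPM in that KO (10 and 27 UMIs). Hoxd13 stood at 0.655 and 0.694 CPM (38 and 41 UMIs). In gonadal somatic cells Hoxd13 stood at 0.395 and 0.0849 CPM (12 and 2 UMIs), and Hoxa13 had 1 UMI in each. Sertoli cells apart, the E11.5 KO was the lowest in 11 of 12 cell types, the exception being germ cells, at 5.73, 6.84, 8.34 and 6.37 CPM. In summed counts fewer cells of a kind and less RNA per cell cannot be told apart. In supporting-like, adrenal and immune cells this rested on 3 to 11 UMIs in that sample.

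**Figure D3:**
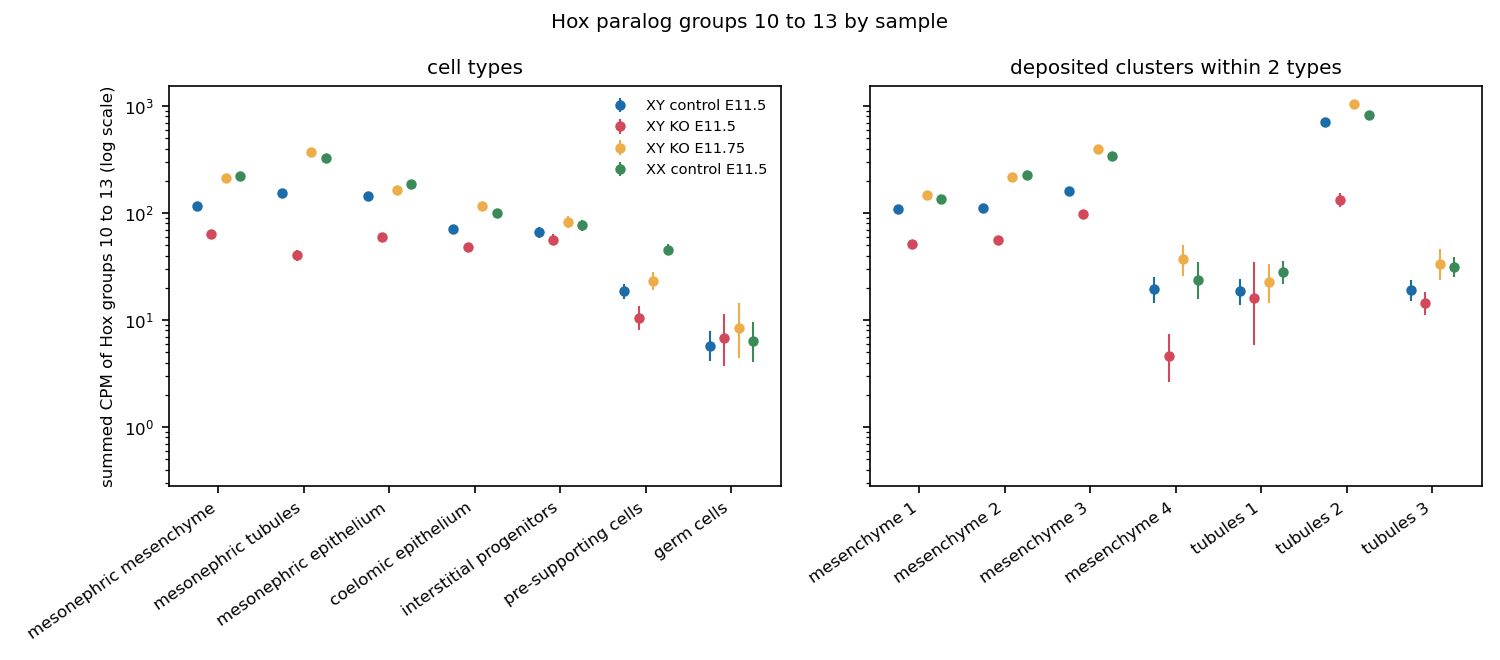
Summed CPM (log scale) of the 9 Hox genes of paralog groups 10 to 13 in 7 cell types (left) and in the deposited clusters within mesonephric mesenchyme and tubules (right), 1 point per sample with its 95% Poisson interval. The E11.5 KO is the lowest point in each type but germ cells, and the cluster Mesonephric tubules 2 holds the highest levels, from 131 to 1039 CPM.

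In each group comparison, a member was called higher or lower where its centred log2 ratio was past 1.5-fold and its interval lay on that side of the median gene, where the gene had 100 UMIs or more in the pair together. A member could thus pass mainly through the sample in which it was high, so counts of calls are a description, and most of the called members below the minimum in their lower sample are named. The median gene lay between -0.13 and -0.07 for the E11.5 KO, between 0.13 and 0.19 for the E11.75 KO and between -0.17 and -0.11 for the XX control, and ratios below are relative to it. The median over tested members lay between 0.05 and 0.48, between 0.11 and 0.39 and between -0.01 and 0.52 over the types in the 3 comparisons, above the median of all genes in all types but mesonephric epithelium of the XX control.

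The E11.5 KO over the XY control is the comparison at 1 stage. Summed by position, groups 1 to 4 and 5 to 8 were at log2 ratios of 0.25 and 0.23 in mesonephric mesenchyme, group 9 at -0.22 and groups 10 to 13 at -0.78 (-0.85 to -0.71). In coelomic epithelium these were 0.63, 0.32, -0.35 and -0.46, and in pre-supporting cells 0.72, 0.72, 0.12 and -0.73. The last value rested on 63 against 146 UMIs and was -1.55 with run 1 alone and -0.40 with run 2 alone. Mesonephric epithelium had 0.21 for groups 1 to 4 and -1.20 for groups 10 to 13. In tubules groups 1 to 4 were at 0.00 (-0.07 to 0.06) and groups 10 to 13 at -1.84, and in interstitial progenitors groups 1 to 4 were at 0.48 and groups 10 to 13 at -0.10 (-0.33 to 0.14), with intervals that held 0.

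In mesonephric mesenchyme 4 of 29 tested members were higher, where the background was 2.9% of genes, and 4 were lower, where it was 3.07%. All 4 lower members came from groups 10 to 13. Hoxa11 stood at 4.30 CPM in the control and 1.59 CPM in the KO, a log2 ratio of -1.34 (-1.76 to -0.94) from 184 and 69 UMIs. Hoxd11 stood at 15.5 and 6.48 CPM (-1.17), Hoxa10 at 36.1 and 17.1 CPM (-0.98) and Hoxd10 at 11.2 and 6.53 CPM (-0.69). Among the higher members were Hoxb9 at 9.35 and 18.0 CPM (1.04), Hoxb8 at 14.2 and 22.1 CPM (0.73) and Hoxa4 at 17.5 and 25.8 CPM (0.65).

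In mesonephric tubules the same 4 posterior members were lower in the KO at E11.5, each with a larger ratio. Of 27 tested members, 7 were lower against a background of 4.35% of genes, and 2 were higher against 3.19%. Each of the 7 had under 100 UMIs in the KO and passed through the control, so the count is a description. Hoxa11 stood at 11.4 CPM in the control and 0.999 CPM in the KO, which rests on 103 and 6 UMIs (-3.32, -4.90 to -2.25). The others included Hoxd11 at 40.1 and 6.49 CPM (-2.53), Hoxd10 at 12.0 and 3.0 CPM (-1.89), Hoxa10 at 48.2 and 15.5 CPM (-1.55) and Hoxc10 at 35.1 and 13.7 CPM (-1.27). Hoxd10 had also differed past the fold between the runs of the XY control in this type, as had Hoxc5. Hoxc11 and Hoxd12 were at 0 in the KO, where 3 counts would be 0.499 CPM, and at 1.55 and 4.09 CPM in the control; Hoxa13 was at 0 in both. Hoxa4 (0.90, with 95 UMIs in the KO and 81 in the control) and Hoxa7 (0.74) were higher, the latter at 71.4 and 113 CPM. Hoxd1 and Hoxd3 were lower as well, at -0.79 and -1.10. The deposited clusters within this type took different shares of its cells, and Mesonephric tubules 1 held 31.3% of tubule cells in the control and 4.78% in the KO. Hoxd1 stood higher in the KO within that cluster (42.2 and 63.8 CPM, 123 and 24 UMIs). It was also higher within Mesonephric tubules 3 (4.55 and 6.96 CPM, 20 and 30 UMIs), and lower within Mesonephric tubules 2 (8.57 and 2.28 CPM, 15 and 3 UMIs). Hoxd3 had 36.7 and 21.3, 8.57 and 3.79, and 10.0 and 8.12 CPM in Mesonephric tubules 1 to 3. These values rested on 107 and 8, 15 and 5, and 44 and 35 UMIs. Differences of single members within clusters were not called, and most rested on few UMIs.

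In mesonephric epithelium 3 of 25 tested members were higher (background 2.15%) and 5 were lower (background 2.68%), the latter being Hoxa10, Hoxd11, Hoxc10, Hoxd9 and Hoxc9. Hoxa10 stood there at 57.6 and 18.6 CPM (-1.56), and Hoxb9, among the higher ones with Hoxb8 and Hoxa7, at 11.2 and 23.2 CPM (1.11). Hoxb8 and Hoxb9 had 65 and 69 UMIs in the control and Hoxd11 had 75 in the KO, under the minimum.

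In coelomic epithelium of the E11.5 KO, 9 of 26 tested members were higher against a background of 2.59% of genes, and 2 were lower against 2.78%. All 9 came from paralog groups 2 to 7. Hoxc4 stood at 35.9 and 57.5 CPM (0.78), Hoxc5 at 25.5 and 41.8 CPM (0.82) and Hoxb2 at 13.6 and 22.4 CPM (0.82), with Hoxa2 (0.81) and Hoxb5 (0.77) also among them. Hoxd11 was lower at 17.8 and 8.12 CPM (-1.02), as was Hoxd10 at 31.5 and 19.2 CPM (-0.61). Under 100 UMIs in the lower sample were Hoxa2, Hoxb5 and Hoxb6 of the 9, with 43, 74 and 69 UMIs in the control, and Hoxd11, with 81 in the KO against 192. Hoxd9 missed the fold at 236 and 164 CPM.

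Pre-supporting cells, in which the sex-determining pathway starts, had 6 of 12 tested members higher against a background of 4.13% of genes, and 1 lower, Hoxa9, against 5.59%. Of the 6, Hoxb7, Hoxc4 and Hoxc5 had under 100 UMIs in the control, as had Hoxa9 in the KO. Hoxa7 stood at 17.9 CPM in the control and 38.8 CPM in the KO (1.21, 0.90 to 1.52), Hoxb7 at 6.85 and 14.4 CPM (1.16), Hoxc5 at 7.74 and 16.1 CPM (1.14) and Hoxc4 at 11.3 and 23.2 CPM (1.13). Hoxc8 and Hoxc6 followed at 0.61 and 0.59. The 24 other members had fewer than 100 UMIs over both samples in this type. In interstitial progenitors 3 of 17 tested members were higher (background 2.83%) and 0 lower (background 3.32%): Hoxb7 (0.99), Hoxa7 at 42.8 and 66.3 CPM (0.76) and Hoxb4 (0.71). Hoxb7 and Hoxb4 had 60 and 64 UMIs in the control. Hoxa7 was thus higher in 5 of the 6 types compared in this KO sample, the exception being mesenchyme at 114 and 140 CPM. Over mesenchyme, coelomic epithelium, pre-supporting cells and interstitial progenitors, calls of a member in a type came to 22 higher and 7 lower, and to 15 higher and 8 lower where ratios were not centred on the median gene.

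Members at 0 were mostly from the ends of the clusters. Hoxa13 was at 0 in interstitial progenitors of all 4 samples, where 3 counts would be 0.632, 0.579, 1.12 and 0.895 CPM, and Hoxb1 was at 0 there in 3 of 4. Hoxa11, Hoxc11, Hoxd1, Hoxd12 and Hoxd13 were at 0 in at least 1 sample of coelomic epithelium, pre-supporting cells or interstitial progenitors, where no sample had more than 2.65 CPM of the same member. In mesonephric mesenchyme 0 members were at 0 in any sample.

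**Figure D4:**
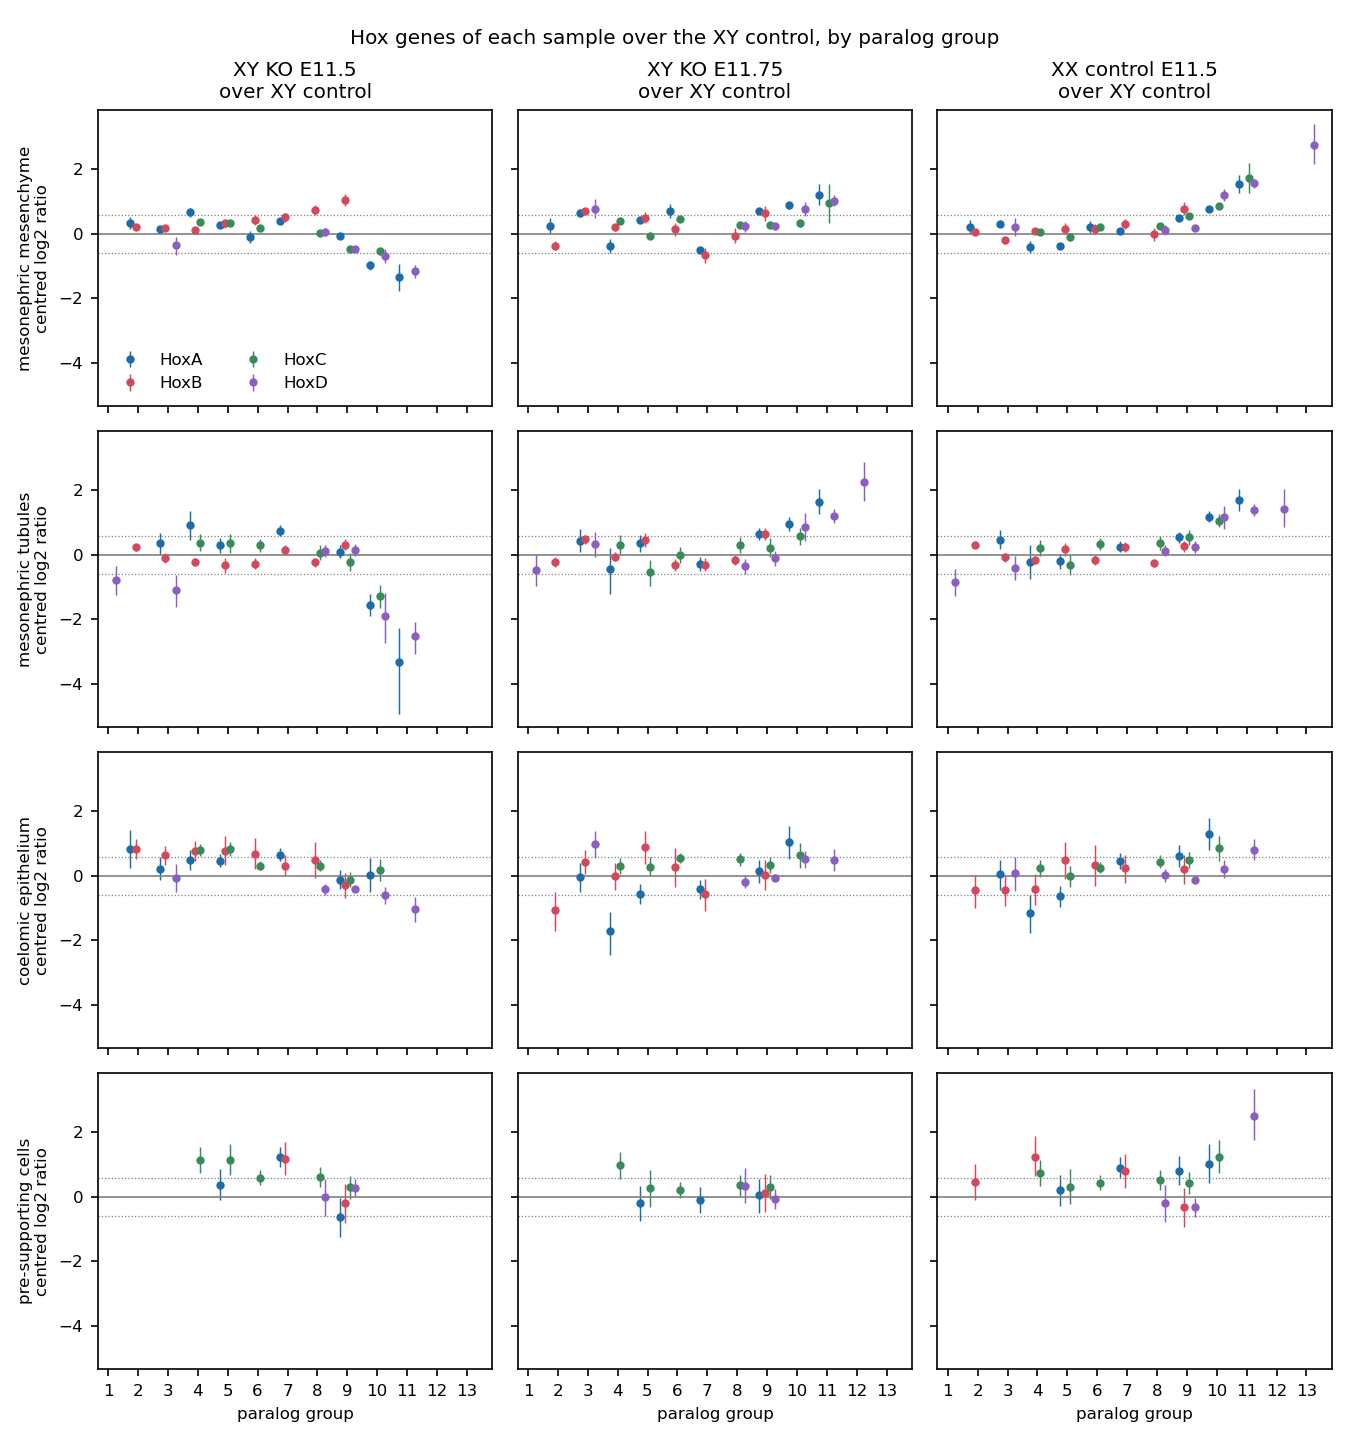
Centred log2 ratio over the XY control against paralog group for tested Hox genes, coloured by cluster, with 95% counting intervals; rows are 4 cell types and columns the 3 comparisons, and dotted lines mark 1.5-fold. In mesonephric mesenchyme and tubules, points of groups 10 to 13 fall below 0 in the E11.5 KO (down to -3.32 for Hoxa11 in tubules, from 6 UMIs in the KO) and above 0 in the E11.75 KO and the XX control.

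The E11.75 KO over the same control went the other way in the posterior members of mesenchyme, tubules and coelomic epithelium. Summed ratios of groups 1 to 4, 5 to 8, 9 and 10 to 13 were 0.33, 0.18, 0.44 and 0.73 in mesonephric mesenchyme and 0.08, -0.10, 0.40 and 1.12 in tubules. Groups 10 to 13 were at 0.57 in coelomic epithelium. Their intervals held 0 in mesonephric epithelium (0.05, -0.11 to 0.20), pre-supporting cells (0.14, -0.24 to 0.50) and interstitial progenitors (0.21, -0.05 to 0.46). In mesonephric mesenchyme 11 of 30 tested members were higher, where the background was 7.58% of genes, and 1 was lower, where it was 12.8%. Hoxa11 stood at 11.0 CPM (1.20), Hoxd11 at 34.8 CPM (1.01), Hoxc11 at 2.90 CPM (0.95, 42 and 58 UMIs), Hoxa10 at 73.3 CPM (0.87) and Hoxd3 at 11.3 CPM (0.77). Hoxb7 was lower, at 12.6 CPM against 18.0 CPM in the control (-0.67). In tubules 7 of 28 tested members were higher (background 5.03%) and 0 lower (background 9.2%), led by Hoxd12 at 21.6 against 4.09 CPM (2.25, 73 and 37 UMIs), Hoxa11 at 38.7 against 11.4 CPM (1.62), Hoxd11 at 101 against 40.1 CPM (1.19), Hoxa10 (0.94) and Hoxd10 (0.85).

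In gonadal types of the later KO sample, coelomic epithelium had 4 of 24 tested members higher (background 6.65%) and 2 lower (background 11.2%). Hoxa10 stood there at 14.6 against 6.49 CPM (1.03), with Hoxd3 (0.97), Hoxb5 (0.88) and Hoxc10 (0.63) also higher, and Hoxa4 at 5.25 against 15.9 CPM (-1.72) and Hoxb2 at 7.08 against 13.6 CPM (-1.07) were lower. Both lower members passed through the control, with 23 and 31 UMIs in the KO against 172 and 147, and Hoxa10 and Hoxb5 had 64 and 61 UMIs against 70 and 74. Pre-supporting cells had 1 of 11 higher, Hoxc4 at 25.1 against 11.3 CPM (0.96), and 0 lower, against backgrounds of 9.16% and 14%. This call rested on 115 and 89 UMIs, and 1 of 11 is near the background. Interstitial progenitors had 3 of 15 higher, namely Hoxb3 (0.96), Hoxa3 (0.79) and Hoxc4 (0.73), and 0 lower, against 8.15% and 12.4%, with 84 and 80 UMIs of Hoxb3 and Hoxa3 in the KO against 70 and 75. In mesonephric epithelium Hoxa3 was higher and Hoxa7 lower of 22 tested, against 8.24% and 13.2%. Hoxa7 was not called higher in any type of this sample, and in pre-supporting cells it stood at 19.0 CPM.

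The XX control over the XY control concerns sex, and breeding, depth and filtering differ with it. Summed ratios of the same groups were 0.04, 0.08, 0.45 and 1.06 in mesonephric mesenchyme, 0.04, 0.05, 0.38 and 1.26 in tubules and 0.70, 0.51, 0.12 and 1.40 in pre-supporting cells. In mesonephric mesenchyme 8 of 31 tested members were higher, against a background of 2.83% of genes, and 0 were lower, against 4.7%. The higher members were those of groups 10 to 13 with enough counts, and Hoxb9. Hoxd11 stood at 41.7 against 15.5 CPM (1.55), Hoxa11 at 11.4 against 4.30 CPM (1.53) and Hoxd10 at 23.5 against 11.2 CPM (1.19). Hoxd13 at 4.00 against 0.655 CPM (2.72, 115 and 28 UMIs) and Hoxc11 at 4.07 against 1.36 CPM (1.71, 117 and 58 UMIs) passed the minimum through the XX control, and 6 of the 8 had at least 100 UMIs in both samples. Hoxd13 had also differed past the fold between the runs of the XX control. In tubules 6 of 28 tested members were higher, against 4.1%, and Hoxd1 was lower, against 7.41%. Hoxa11 stood at 32.3 against 11.4 CPM (1.67), Hoxd12 at 9.75 against 4.09 CPM (1.42, 76 and 37 UMIs), Hoxd11 at 92.5 against 40.1 CPM (1.38), Hoxa10 at 96.8 against 48.2 CPM (1.17) and Hoxd10 at 23.7 against 12.0 CPM (1.15).

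In pre-supporting cells of the XX control 8 of 17 tested members were higher (background 2.91%) and 0 lower (background 5.17%), and 7 of the 8 had under 100 UMIs in the XY control. Hoxd11 stood at 12.1 against 2.28 CPM (2.48), Hoxb4 at 10.0 against 4.57 CPM (1.23), Hoxc10 at 14.2 against 6.47 CPM (1.23), Hoxa10 at 9.44 against 5.07 CPM (1.0) and Hoxa7 at 31.0 against 17.9 CPM (0.90). In coelomic epithelium 4 of 24 were higher (background 2.11%), namely Hoxa10 (1.28), Hoxc10 (0.85), Hoxd11 (0.80) and Hoxa9 (0.61), and Hoxa4 (-1.15) and Hoxa5 (-0.63) were lower (background 5.91%). Hoxa10 had 69 UMIs against 70 and Hoxa4 31 against 172. Hoxa9 and Hoxd11 had also differed between the XX runs in this type. Interstitial progenitors had Hoxc9 (0.89), Hoxc10 (0.78), Hoxa9 (0.75) and Hoxb3 (0.62) higher of 17 tested and 0 lower, against 2.57% and 4.21%. Of these, Hoxb3 and Hoxc10 had under 100 UMIs in the XY control. Mesonephric epithelium had Hoxb9 and Hoxb7 higher of 23 tested and 0 lower, against 1.64% and 4.55%.

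Most posterior UMIs of the tubules came from 1 of the 3 clusters that the deposited annotation merges into that type. The cluster deposited as Mesonephric tubules 2 held 712, 131, 1039 and 828 CPM of groups 10 to 13, whereas the other clusters of tubules held 14.4 to 33.4 CPM in the 4 samples. Hoxd11 stood there at 201, 28.1, 287 and 241 CPM and Hoxa10 at 215, 41.7, 282 and 241 CPM. This cluster was 23.6, 29.6, 36.1 and 47.1% of tubule cells. Markers of the tubule list were divided in it. Lhx1 and Cdh16 were each at 4.55 CPM or less in every sample, while Cdh16 stood at 154 to 422 CPM in the cluster Mesonephric tubules 3. Gata3 at 4.57, 15.2, 1.76 and 2.08 CPM and Pax8 at 36.0, 13.7, 44.0 and 14.9 CPM were also below that cluster in each sample. Pax2, in contrast, stood at 163, 59.95, 351 and 106 CPM, above that cluster (121, 156, 203 and 86.9 CPM) in all samples but the E11.5 KO. The cluster also held Eya1 at 244, 96.4, 285 and 248 CPM, Six2 at 158, 53.1, 255 and 170 CPM, Osr1 at 78.9, 20.5, 90.7 and 108 CPM and Gdnf at 32.6, 4.55, 86.3 and 37.4 CPM.

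Within this cluster the summed log2 ratio of groups 10 to 13 was -2.38 in the E11.5 KO, 0.42 in the E11.75 KO and 0.30 in the XX control, against -1.84, 1.12 and 1.26 over all tubules. In Mesonephric tubules 1 and 3 the E11.5 KO was at -0.10 and -0.32, from 6 against 54 and 62 against 83 UMIs. The first value came from 44 KO cells, at 15.9 CPM (5.85 to 34.7) against 18.5 CPM in the control. In groups 10 to 13 the KO at E11.5 was thus lower within Mesonephric tubules 2 and nearer the median gene in Mesonephric tubules 3. In Mesonephric tubules 1 the count is too low to tell. The higher levels of the other samples in tubules were larger over the merged type than within Mesonephric tubules 2. In the mesenchyme the 4 deposited clusters each had the E11.5 KO lowest. The cluster Mesonephros 3 held the highest level, at 160, 97.6, 399 and 343 CPM. Lower levels in Mesonephric tubules 2 of the E11.5 KO were not limited to groups 10 to 13. Between the XY control and that KO, Hoxb2 stood at 125 and 35.7 CPM there, Hoxb5 at 38.9 and 8.35 and Hoxa9 at 171 and 66.8 CPM. Hoxc4, at 50.3 and 50.8 CPM, and Hoxc5, at 25.1 and 34.9 CPM, were not lower.

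The partner genes of posterior Hox proteins also differed between samples in tubules. Of Eya1, Pax2, Six2, Gdnf and Osr1, 4 were tested in the E11.5 KO, where Eya1 (-1.09), Six2 (-1.23) and Osr1 (-1.23) were lower (background 4.35%). Six2 and Osr1 had under 100 UMIs in that KO and passed through the control. In the E11.75 KO Gdnf (2.02), Six2 (1.34), Eya1 (0.84) and Osr1 (0.76) were higher (background 5.03%). In the XX control Osr1 (1.47), Gdnf (1.24), Six2 (1.22) and Eya1 (1.09) were (background 4.1%). Gdnf had under 100 UMIs in the XY control. Within Mesonephric tubules 2 the XX control was closer to the XY control. There Eya1 stood at 248 against 244 CPM, Six2 at 170 against 158, Gdnf at 37.4 against 32.6 and Osr1 at 108 against 78.9 CPM. In the E11.75 KO these genes stood there at 285, 255, 86.3 and 90.7 CPM. Pax2 was tested and not called in any of the 3 comparisons in tubules. Their part in the Hox differences was not tested.

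Of the TALE cofactors in the E11.5 KO, 0 of 9 tested were called in mesenchyme, 0 of 8 in coelomic epithelium and 0 of 8 in pre-supporting cells. With 2.9% of all genes called higher and 3.07% lower in mesenchyme, a count of 0 in lists of this size is near the background. In tubules Pknox2 was higher at 10.2 against 4.86 CPM (1.14), as 1 of 9 tested against a background of 3.19%. Meis3 was lower in mesenchyme (-0.62, 1 of 9 tested) and mesonephric epithelium (-0.86, 1 of 8) of the E11.75 KO, against backgrounds of 12.8% and 13.2%. Pbx3 was higher in pre-supporting cells of that sample (0.90, 1 of 8, background 9.16%). Each of these counts is near the background. Meis1, Meis2 and Meis3 were higher in tubules of the XX control (0.64, 0.74 and 0.60), as 3 of 8 tested against 4.1% of genes. Pknox2 was lower in coelomic epithelium of the XX control (-0.90), as 1 of 8 tested against 5.91%. Pbx2, Pbx3, Pbx4 and Pknox1 were not called in mesenchyme or tubules of any comparison, and stood in mesenchyme at 128 to 173, 115 to 142, 4.49 to 5.47 and 32.8 to 68.9 CPM. Of the 19 Polycomb genes, which keep Hox clusters silent, 18 were tested in mesenchyme of the E11.5 KO and 0 were called, and 0 of 9 MLL and trithorax genes, which keep them active, were called there, which is likewise near the background. In mesenchyme of the E11.75 KO the Polycomb genes Phf19 (1.02), Phc3 (1.02) and Ezh1 (0.80) were higher of 18 tested, where the background was 7.58% of genes. In mesenchyme of the XX control the X-linked demethylase gene Kdm6a was higher (0.60), as 1 of 9 MLL and trithorax genes tested against 2.83%. Of 4 Cdx and Evx genes, 0 were tested in these types. Hotairm1, a noncoding RNA of the early end of HoxA, stood at 22.6, 28.2, 16.1 and 20.3 CPM in mesenchyme and at 16.7, 20.6, 7.08 and 13.2 CPM in coelomic epithelium. It was called lower in both types of the E11.75 KO (-0.64 and -1.36). These were 1 of 6 and 1 of 2 tested RNAs of the clusters, against 12.8% and 11.2% of genes, the first near the background. In coelomic epithelium it had under 100 UMIs in that KO and passed through the control. In pre-supporting cells of the E11.5 KO it was higher, at 11.4 against 6.21 CPM (0.97), as 1 of 2 tested against 4.13%.

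Transcripts of other cells moved between the samples too. The summed level of 4 immune markers in mesenchyme was 19.9, 4.51, 3.66 and 9.89 CPM, that of 5 germ cell markers 24.9, 9.06, 16.3 and 12.2 CPM, that of 4 endothelial markers 61.9, 51.2, 102 and 36.6 CPM and that of 2 globin genes 321, 177, 322 and 129 CPM. In tubules the globin genes stood at 228, 140, 192 and 450 CPM, and the endothelial markers at 20.2, 13.3, 13.9 and 7.31 CPM. Endothelial markers in mesenchyme were thus highest in the E11.75 KO, and globin in tubules highest in the XX control. The part of these transcripts in the Hox differences was not tested. Between the technical runs of a sample, 0 members in the XY control, 1 in the E11.5 KO and 5 in the XX control passed the fold in mesenchyme, coelomic epithelium, pre-supporting cells or interstitial progenitors. The member of the E11.5 KO was Hoxc6 in interstitial progenitors (1 of 13 tested, against 97 of 7025 genes). In the XX control they were Hoxd13 in mesenchyme (1 of 30, against 60 of 11146 genes) and Hoxa9 and Hoxd11 in coelomic epithelium (2 of 13, against 125 of 6527). The others there were Hoxd9 in pre-supporting cells (1 of 7, against 107 of 7544) and Hoxc4 in interstitial progenitors (1 of 7, against 97 of 5377). In mesonephric epithelium Hoxc10 did so in the E11.5 KO and Hoxa10 in the XX control, and Hoxc5 in tubules of both controls.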

How the data were processed

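Gonads with mesonephros were profiled with 10x Genomics 3′ v3.1 chemistry after methanol fixation. Per the labels and methods, the authors aligned reads to mm10 with Cell Ranger 6.1.1, filtered cells, removed doublets and integrated samples with Seurat. They also removed 1 cluster that held XY control cells only. The deposited table holds raw UMI counts, checked to be whole, for 21495 genes in 52745 cells, with cell types as deposited by the authors. Several types were renamed here. Mesonephros became mesonephric mesenchyme, Epithelial mesonephros became mesonephric epithelium and Epithelial became coelomic epithelium. Bipotential progenitors became pre-supporting cells, Interstitial cells became interstitial progenitors and Supporting became Sertoli cells. Globin limits differed between the XY samples and filters between sexes, and median depth was 3893 to 15509 UMIs.

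Counts were summed per cell type and sample with Python 3.11.15, numpy 2.4.6, scipy 1.17.1 and pandas 2.3.3. Levels carry exact Poisson intervals, shares exact Clopper-Pearson intervals and log2 ratios (prior count 0.5) exact binomial intervals, at 95%. Ratios were centred on the median gene with at least 100 UMIs and called past 1.5-fold. The calls were tried on simulated Poisson counts of mesonephric mesenchyme with known changes. The simulation held counting error only, so it does not measure calls that arise from differences between pools or runs. Mesonephric tubules and epithelium were added to the 4 types first chosen for group comparisons. Named were the 8 highest members of each compartment, up to 8 members called between compartments and up to 5 per direction, comparison and type, members at 0 and the TALE cofactors; other genes were named where called. The members and lists were chosen with earlier results of these data known. Gene positions, microRNAs and 3′ UTRs came from GENCODE and RefSeq annotation of mm10. Alternatives included TMM factors from edgeR 4.0.16 (R 4.3.3), other minimum counts, folds and totals, single runs and deeper cells. Values of some genes are not reported here, in the text or in the plots.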

Additional observations from a re-analysis of the deposited data

Results flagged for a closer look

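The KO samples at E11.5 and E11.75 were past 1.5-fold on opposite sides of the shared XY control for 10 pairs of a member and a type, and these differences were not tested. They were 10 of 128 pairs tested in both KO samples, where the background was 0.443% of 60521 pairs of a gene and a type. In tubules Hoxa10, Hoxa11, Hoxd10 and Hoxd11 had under 100 UMIs in the E11.5 KO, as had Hoxa11 in mesenchyme. Hoxb2 in coelomic epithelium had under 100 UMIs in the E11.75 KO. These lower calls passed through the control, so the count of pairs is a description. The shared control enters both ratios. Hoxa11 had log2 ratios of -1.34 and 1.20 in mesonephric mesenchyme and of -3.32 and 1.62 in tubules, where it had 103 UMIs in the XY control and 6 and 131 in the KO samples. Hoxd11 had -1.17 and 1.01 in mesenchyme and -2.53 and 1.19 in tubules, Hoxa10 -0.98 and 0.87 in mesenchyme and -1.55 and 0.94 in tubules, and Hoxd10 -0.69 and 0.75 in mesenchyme and -1.89 and 0.85 in tubules. Mesonephric tubules 2 was 23.6% of tubule cells in the XY control and 36.1% in the E11.75 KO. Within it Hoxa10 stood at 215 and 282 CPM in these samples, Hoxd10 at 53.7 and 66.9 and Hoxd11 at 201 and 287 CPM, each under 1.5-fold. Hoxa11 stood at 56.6 and 115 CPM. Summed over paralog groups 10 to 13, the ratios were -0.78 and 0.73 in mesenchyme, -1.84 and 1.12 in tubules and -0.46 and 0.57 in coelomic epithelium. Away from the posterior groups, Hoxa7 was at 0.59 and -0.64 in mesonephric epithelium and Hoxb2 at 0.82 and -1.07 in coelomic epithelium.

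The table held a further column named Hoxd4.1, which the rule for members left out. It had 793 UMIs over the 4 samples, against 207 UMIs for Hoxd4.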

How the results depend on the processing

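No paired analysis was possible because each group held 1 sample, and for the same reason no sample could be left out. Of 195 alternative values of 41 results, 85 stayed within the spread used as the limit, 110 moved and 0 changed direction. Only the summed ratios among them could change direction, since counts, shares and levels have no sign. The 0 therefore carries no information on counts, shares and levels. Summed ratios of types other than mesenchyme and tubules are not among these 41 results, and 2 of them did change direction with 1 run alone. TMM factors cannot change a centred ratio. The causes of the changes below were not tested, except that higher minimum counts test fewer members. Ratios for deposited clusters were chosen after seeing the data.

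Counts of calls over mesenchyme, coelomic epithelium, pre-supporting cells and interstitial progenitors moved most with the minimum and the fold. For the E11.5 KO, 22 higher calls became 8 with at least 500 UMIs, 5 at 2-fold and 14 with run 2 alone, and 7 lower calls became 4 and 3 with the first pair of settings. For the E11.75 KO, 19 higher calls became 10 with 500 UMIs and 3 at 2-fold, and 3 lower calls became 1 with 500 UMIs and 6 in cells of at least 3000 UMIs. Without centring, higher calls of this sample went from 11 to 14 in mesenchyme and from 4 to 8 in coelomic epithelium. They went from 3 to 5 in interstitial progenitors and stayed at 1 in pre-supporting cells. For the XX control, 24 higher calls became 7 with 500 UMIs, 9 at 2-fold, 12 with run 1 alone and 15 with run 2 alone, and 2 lower calls became 0, 1 and 0 with 500 UMIs, at 2-fold and with run 1 alone. Between compartments, 22 higher members became 16 to 24, and Hoxd9 was no longer lower at 2-fold (0 members).

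In mesenchyme and tubules, summed ratios of groups 10 to 13 kept their direction. In mesenchyme of the E11.5 KO (-0.78) they were -0.88 without centring and -1.0, -0.90, -0.62 and -1.96 in the clusters Mesonephros 1 to 4. In tubules (-1.84) they were -0.10, -2.38 and -0.32 in Mesonephric tubules 1 to 3, the first from 6 UMIs in the KO. For the E11.75 KO, mesenchyme (0.73) gave 0.88 without centring, 0.81 in deeper cells and 0.32, 0.83, 1.18 and 0.84 by cluster, and tubules (1.12) gave 1.27 without centring, 1.23 and 1.0 against either run of the control, and 0.20, 0.42 and 0.69 by cluster. For the XX control, mesenchyme (1.06) gave 0.93 without centring, 1.12 in deeper cells, 0.96 and 1.15 by run and 0.42, 1.14, 1.21 and 0.37 by cluster, and tubules (1.26) gave 1.09 without centring, 1.41 and 1.07 by run and 0.71, 0.30 and 0.89 by cluster. In other types single runs could turn the direction. With run 1 alone interstitial progenitors of the XX control went from 0.33 to -0.53, and with run 2 alone to 0.91. With run 2 of the XY control alone pre-supporting cells of the E11.75 KO went from 0.14 to -0.10. Pre-supporting cells of the E11.5 KO (-0.73) gave -1.55 and -0.40 by run, and in the XX control coelomic epithelium (0.63) gave 0.33 and 0.76 and mesonephric epithelium (0.49) gave 0.71 and 0.23.

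The share of Hox UMIs from groups 9 to 13 was 26.1, 18.6, 30.6 and 35.3% in mesenchyme and 45.2, 32.4, 45.4 and 46.5% in coelomic epithelium. In deeper cells of the XY control mesenchyme had 25.5%. The share of groups 10 to 13 alone was 9.08, 4.94, 12.1 and 15.8% in mesenchyme and 8.50, 5.73, 11.6 and 12.2% in coelomic epithelium. As a mean over cells the share of groups 9 to 13 was 18.2, 29.9 and 32.2% in mesenchyme of all but the XY control, and 46.8, 33.7 and 44.5% in coelomic epithelium of all but the E11.75 KO. The share of cells with at least 5 members followed depth. Thinned to 2000 UMIs it was 0.931, 1.02, 1.82 and 1.0% of gonadal somatic and 8.68, 7.31, 19.5 and 12.6% of mesonephric cells. Thinned to 5000 UMIs it was 9.03, 12.5, 13.2 and 12.6% and 47.9, 48.5, 67.8 and 57.6%. Unthinned it was 8.55, 15.6, 13.4 and 51.2% and 35.3, 46.1, 50.3 and 94.6%.

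Summed Hox CPM without mitochondrial, ribosomal and globin genes and Gm42418 in the totals was 701, 915, 851 and 781 in gonadal somatic and 1687, 1672, 2229 and 1872 in mesonephric cells. As a mean over cells it was 563, 691, 697 and 574 in gonadal somatic cells, and 1827 and 1465 in mesonephric cells of the E11.75 KO and the XX control. With TMM factors it was 724, 589 and 631 in gonadal somatic and 1400, 1581 and 1573 in mesonephric cells of the samples after the XY control.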
